A study of Mus musculus with 32 samples.

Results

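Lung endothelial genes were followed here as a set of 10 genes, taken by name from 41687 rows of the count table. They are 5 genes shared by endothelial cells in general (Pecam1, Cdh5, Kdr, Tek and Nos3), 4 genes that mark kinds of vessel or capillary (Vwf, Car4, Ednrb and Aplnr) and Prox1, a gene of lymphatic endothelium. All 10 were found and all 10 passed the filter on low counts in every comparison. The libraries came from lungs of 12 adult mice aged 8 to 18 weeks, bred in-house and labelled female: 6 C57b/6 wild types (WT) and 6 Bmal1 knock-outs (KO). Bmal1, whose gene symbol is Arntl, encodes one of the core transcription factors that drive daily rhythms. The labels do not give the construction of the knock-out allele, nor the time of day of sampling. RNA of each mouse went into a RiboZero library (pull-down of ribosomal RNA, n = 6 per genotype) and a PolyA library (selection of polyadenylated RNA, n = 6 per genotype). Mice 3 to 6 of each genotype also gave NoSelect libraries, made with neither step (n = 4 per genotype). RiboZero and PolyA libraries started from 200 ng of RNA and NoSelect libraries from 15 ng, so that preparation and input cannot be told apart there.

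Endothelial cells line all blood and lymphatic vessels. Pecam1 and Cdh5 encode adhesion proteins of the contacts between them, Kdr and Tek encode the receptors for vascular endothelial growth factor and the angiopoietins, and Nos3 encodes the enzyme that makes nitric oxide in the vessel wall. Vwf encodes von Willebrand factor, the platelet-binding protein that endothelial cells of larger vessels store and that megakaryocytes also make. In the alveolar capillary net, Car4, a membrane-bound carbonic anhydrase, and Ednrb, an endothelin receptor, mark the large thin cells called aerocytes, while Aplnr, the apelin receptor, marks the general capillary cells. Prox1 is the transcription factor that sets lymphatic identity. In whole lung, fewer cells of a type and less RNA per cell cannot be told apart.

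Total estimated counts ran from 11638590 to 25801192 in RiboZero, from 29924271 to 41548759 in PolyA and from 74979759 to 115059730 in NoSelect libraries. In NoSelect, the rows of Lars2 and a Gm42418 transcript took most of the counts, and 22009219 to 37100630 counts were left without them. Normalised counts (CPM, counts scaled to the effective library total) are therefore low there, and they are compared between genotypes only within a preparation. The KO level of Arntl itself was 56.4% of WT by RiboZero, 82.8% by PolyA and 61.9% by NoSelect (edgeR quasi-likelihood test, adjusted p = 2.46e-05, 0.0262 and 0.000451). The NoSelect library of KO mouse 6 is labelled liver, yet it held 16 counts of the hepatocyte gene Alb (2 to 28 in the other 7) and 218087 counts of the lung gene Sftpc (90229 to 164152 in the others). KO mouse 6 is also labelled female but had 2195, 2578 and 2967 counts of the Y-linked gene Ddx3y in its 3 libraries, against 0 in the libraries of all other mice. Results are therefore given also without KO mouse 6 where that changes a call.

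The 10 genes together held between 0.234% and 0.334% of the counts of a library. For NoSelect this share is of the counts left without Lars2 and the Gm42418 transcript. It is smaller over all NoSelect counts. Levels were set per kilobase of exon, over all annotated exons of a gene. On that scale Cdh5 had the highest median and Prox1 the lowest in every preparation. In PolyA the ranges of Cdh5 and Pecam1 overlapped. The order rests on this length, which differs from the longest transcript (6228 against 3441 bases for Pecam1, 4203 against 3995 for Cdh5). The order by longest transcript was not computed. In RiboZero libraries the median level was 202 CPM per kilobase for Cdh5, 113 for Pecam1, 76.9 for Tek, 51.9 for Kdr, 39.1 for Car4 and 25.6 for Ednrb. It was 14.1 for Vwf, 11.3 for Aplnr, 7.46 for Nos3 and 0.618 for Prox1. The ranges over the 12 libraries of neighbours in this order did not overlap, except for Kdr with Car4, Vwf with Aplnr and Aplnr with Nos3. In PolyA libraries Car4 ranked 3, at 90.4 CPM per kilobase, ahead of Tek at 63.2. The NoSelect order of the 10 genes was that of RiboZero, with Kdr at 12.36 and Car4 at 12.31 CPM per kilobase and overlapping ranges.

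The first comparison asked whether loss of Bmal1 was accompanied by other levels of the endothelial genes. None of the 10 passed edgeR's test (adjusted p under 0.05) between KO and WT in any of the 3 preparations. Over all rows tested the share called was 3.46% in RiboZero (1.84% higher, 1.63% lower), 4.03% in PolyA (1.62% and 2.41%) and 2.17% in NoSelect (1.19% and 0.981%). The PolyA balance depended on the fit, with 279 rows higher and 415 lower here, 961 and 603 with all 32 libraries in one fit, and 620 and 446 without WT mouse 2. At an unadjusted p under 0.05 there were 3, 2 and 4 of the 10 (16.4%, 18.0% and 15.7% of all rows), and DESeq2 called 0, 1 and 1 of them after adjustment. The point estimates were above 0 for 7, 7 and 8 genes, with medians of 0.11, 0.12 and 0.12 on the log2 scale. The medians over all rows were -1.2e-05, -0.0029 and 0.00053. The 95% intervals of the 10 genes, in log2, ran from no lower than -0.68 to no higher than 0.73 in RiboZero, from -0.74 to 0.48 in PolyA and from -0.76 to 0.83 in NoSelect.

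**Figure D1:**
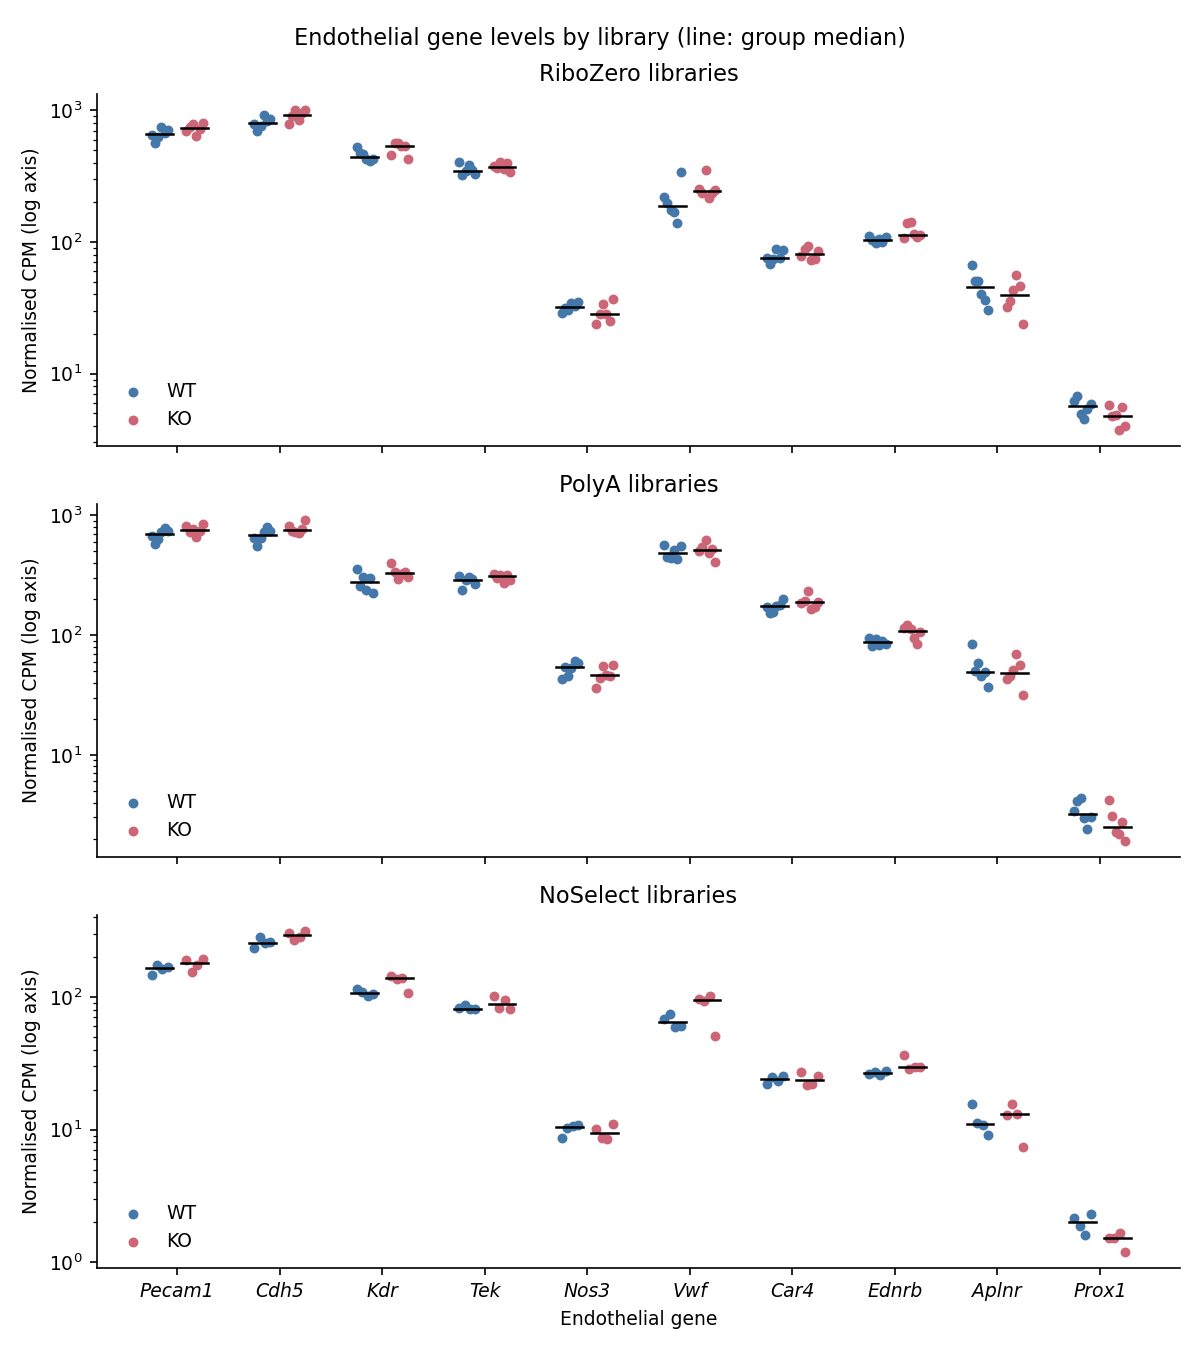
Normalised CPM of each endothelial gene (log axis) in every RiboZero, PolyA and NoSelect library, scaled within the preparation, with WT in blue, KO in red and a line at the group median. The WT and KO points overlap for every gene and preparation except Ednrb in NoSelect, where the 4 KO libraries lie above the 4 WT libraries.

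Pecam1 (ENSMUSG00000020717, chr11:106654217-106750628, GRCm38) and Cdh5 (ENSMUSG00000031871, chr8:104101625-104144511), the junction genes, had slightly higher KO means throughout. Pecam1 in RiboZero read 567.9 CPM in the lowest, 664 in the median and 749.8 in the highest WT library, and 639.9, 733 and 803 in KO. Cdh5 read 699, 809 and 921 CPM in WT and 791, 931 and 1016 in KO. For each gene 3 of 6 KO libraries lay above the WT range and 3 within it. The log2 difference of Cdh5 was 0.18 ± 0.076 (SE) in RiboZero, 0.18 ± 0.088 in PolyA and 0.18 ± 0.069 in NoSelect, with adjusted p of 0.243, 0.315 and 0.249 in edgeR. For Pecam1 it was 0.14, 0.15 and 0.12, and the lowest adjusted p in edgeR was 0.350.

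Kdr (ENSMUSG00000062960, chr5:75932827-75978458), the main signalling receptor for vascular endothelial growth factor A, had the largest positive estimates among the general endothelial genes in PolyA and NoSelect, and in RiboZero an estimate level with that of Cdh5. In RiboZero its lowest, median and highest libraries were 414, 445 and 527 CPM in WT and 428, 539 and 569.7 in KO. In PolyA they were 225, 280.2 and 355 CPM in WT and 294, 330.1 and 398 in KO. In NoSelect the WT mice 3 to 6 read 115, 109, 101 and 105 CPM and the KO mice 145, 136, 139 and 106. The groups overlapped in all 3 preparations, and in NoSelect only KO mouse 6 lay inside the WT range. The log2 difference was 0.18 ± 0.081 in RiboZero, 0.25 ± 0.11 in PolyA and 0.29 ± 0.093 in NoSelect (edgeR, adjusted p = 0.280, 0.257 and 0.168). Without KO mouse 6 the NoSelect difference was 0.38 with an adjusted p of 0.0116 in edgeR, while the RiboZero and PolyA values without that mouse had adjusted p of 0.112 and 0.247. DESeq2 gave an adjusted p of 0.0384 in NoSelect with all libraries.

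Tek (ENSMUSG00000006386, chr4:94739289-94874976) and Nos3 (ENSMUSG00000028978, chr5:24364810-24384474) had estimates of opposite sign. Tek in RiboZero ran from 320.2 to 403 CPM in WT and from 342 to 408 in KO, and its log2 difference was 0.07, 0.10 and 0.12 in RiboZero, PolyA and NoSelect. Nos3 ran from 28.6 to 35.0 CPM in WT and from 24.0 to 37.0 in KO, with differences of -0.13, -0.15 and -0.08. The lowest adjusted p of both in edgeR was 0.450, and the intervals of both included 0 in each preparation. Exons of Nos3 overlap the antisense genes Atg9b and Gm15587 over 1334 bases, and whether strand was used in counting is not given in the sources used here.

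Among the genes of vessel and capillary types, Ednrb (ENSMUSG00000022122, chr14:103814625-103844402) came nearest to the threshold. Its lowest, median and highest RiboZero libraries were 99.1, 104 and 112 CPM in WT and 107, 114 and 141 in KO, and in PolyA they were 81.6, 87.1 and 95.1 in WT and 84.2, 109 and 121 in KO. In NoSelect the WT mice 3 to 6 read 26.4, 27.0, 25.6 and 27.5 CPM and the KO mice 36.6, 28.9, 29.5 and 29.6. The groups overlapped in RiboZero and PolyA, with 4 of 6 KO libraries above the highest WT library in each. They did not overlap in NoSelect, as was the case for 9.51% of all rows there (2.89% in RiboZero and 3.21% in PolyA). The log2 difference was 0.20 ± 0.073 in RiboZero, 0.26 ± 0.081 in PolyA and 0.23 ± 0.075 in NoSelect (edgeR, adjusted p = 0.173, 0.0995 and 0.195). In PolyA its adjusted p was 0.0372 with DESeq2, 0.0174 when all 32 libraries were fitted together and 0.0237 without KO mouse 5, and over all alternatives it ran up to 0.316.

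Because Bmal1 binds E-boxes as a dimer with Clock, the windows upstream of the start sites are shown for Kdr and Ednrb, whose KO estimates were above 0 in each preparation with intervals that excluded 0. RefSeq windows (GRCm38.p6) matched 5 of the 10 genes with 6 windows, and the 250 bases before each start were searched on both strands. Capitals mark GGAA, the core bound by ETS factors, or its reverse complement TTCC. The Kdr window is chr5:75978456-75978705 and the Ednrb window chr14:103843702-103843951, both on the minus strand and written 5′ to 3′. The Ednrb window lies before a RefSeq start that is inside the gene span given above.
Kdr: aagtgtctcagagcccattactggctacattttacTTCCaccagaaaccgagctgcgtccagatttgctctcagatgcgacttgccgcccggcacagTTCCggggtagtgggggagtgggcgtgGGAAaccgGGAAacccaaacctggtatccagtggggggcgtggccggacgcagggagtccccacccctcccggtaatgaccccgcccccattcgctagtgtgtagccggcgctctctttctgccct
Ednrb: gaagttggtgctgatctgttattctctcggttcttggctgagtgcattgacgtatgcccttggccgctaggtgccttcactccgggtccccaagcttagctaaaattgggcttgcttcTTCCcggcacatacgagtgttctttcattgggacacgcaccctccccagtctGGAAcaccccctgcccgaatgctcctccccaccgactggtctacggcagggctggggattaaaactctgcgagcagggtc
The canonical E-box CACGTG was in 0 of the 6 windows and in 6.02% of all 32851 RefSeq windows of that length. With 6 windows, 0 cannot be told apart from that share. GGAA was in all 6 and in 93.4% of all windows. TATAAA was in 1, that of Prox1, and in 12.4% of all windows.

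Car4 (ENSMUSG00000000805, chr11:84957786-84966044), the other aerocyte gene among the 10, ran from 68.2 to 88.8 CPM in WT and from 73.0 to 93.5 in KO in RiboZero. Its log2 differences were 0.07, 0.13 and 0.01 in RiboZero, PolyA and NoSelect. Aplnr (ENSMUSG00000044338, chr2:85136225-85139923) varied widely between mice of both genotypes. It ran from 30.5 to 67.4 CPM in WT and from 23.9 to 56.1 in KO in RiboZero, with differences of -0.22, -0.13 and 0.07 and standard errors of 0.21, 0.20 and 0.23. The lowest adjusted p of both in edgeR was 0.442. WT and KO libraries of Car4 and of Aplnr overlapped in each preparation. The sign of Car4 in NoSelect changed when KO3, KO6, WT3 or WT5 was left out, and that of Aplnr in PolyA without WT1 and in NoSelect without KO4 or WT6.

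Vwf (ENSMUSG00000001930, chr6:125546774-125686679) differed more between single mice than between the genotypes. In RiboZero its lowest, median and highest libraries were 140.3, 186 and 339 CPM in WT and 215, 243 and 354 in KO, and in PolyA 436, 480.5 and 569.9 in WT and 409.7, 516 and 623 in KO. In NoSelect the WT mice 3 to 6 read 68.7, 74.0, 59.4 and 59.9 CPM and the KO mice 96.2, 93.4, 101 and 51.2. Of the 4 NoSelect KO libraries, 3 lay above all WT libraries and that of KO mouse 6 lay below all of them. The log2 difference was 0.32 ± 0.19 in RiboZero, 0.06 ± 0.10 in PolyA and 0.38 ± 0.20 in NoSelect (edgeR, adjusted p = 0.456, 0.796 and 0.397). Without KO mouse 6 it was 0.56 in NoSelect with an adjusted p of 0.0181, and 0.32 and 0.13 in RiboZero and PolyA with adjusted p of 0.474 and 0.498. The summed level of 5 megakaryocyte and platelet genes had a higher median in KO than in WT in each preparation. It ran from 10.9 to 26.0 CPM in WT and from 16.2 to 34.1 in KO in RiboZero. In PolyA the ranges were 17.8 to 43.2 and 26.5 to 59.3, and the genotypes overlapped in both preparations. In NoSelect they were 2.92 to 4.57 and 5.44 to 9.46, without overlap. Of single rows 9.51% did not overlap in NoSelect, and the share for sums of genes was not counted. The lowest KO sum there was that of KO mouse 3, and Vwf was lowest in KO mouse 6. None of these 5 genes was at 0, and their part in the Vwf values was not tested. Of the 5, 1 (Itga2b, a platelet integrin) rose in NoSelect, where 1.19% of all rows were called higher. The estimated counts of Vwf were not whole in any of the 32 libraries, unlike those of 8 of the 10 genes, so part of its reads was shared out by the quantifier.

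**Figure D2:**
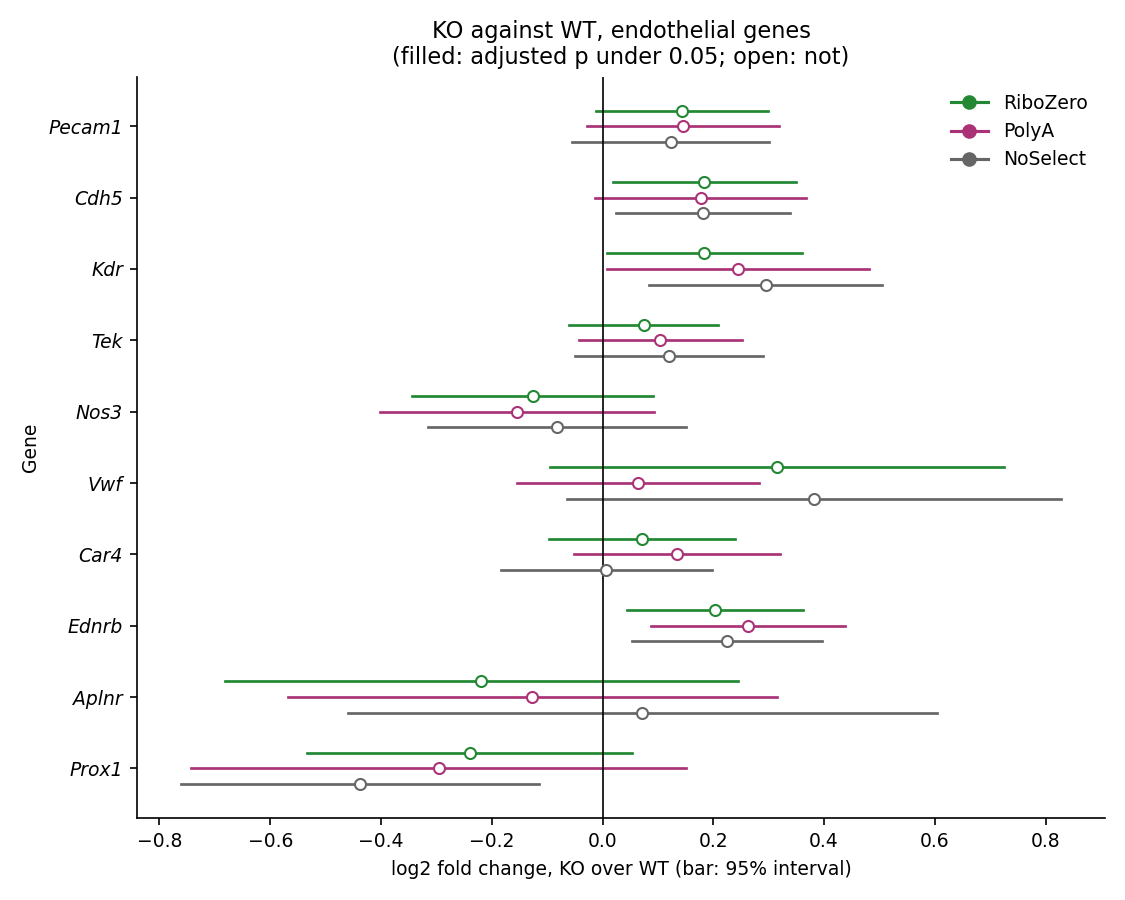
Log2 fold change of KO over WT for the 10 endothelial genes in RiboZero (green), PolyA (purple) and NoSelect (grey) libraries, with 95% intervals from the edgeR fit. All symbols are open because no gene reached an adjusted p under 0.05, and the intervals are widest for Vwf, Aplnr and Prox1.

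Prox1 (ENSMUSG00000010175, chr1:190118035-190170714) was the member with the lowest level and its KO estimates were below 0 in each preparation. Its lowest, median and highest RiboZero libraries were 4.49, 5.63 and 6.80 CPM in WT and 3.71, 4.78 and 5.77 in KO, and in PolyA 2.39, 3.20 and 4.34 in WT and 1.91, 2.52 and 4.22 in KO. In NoSelect the WT mice 3 to 6 read 2.15, 1.88, 1.62 and 2.30 CPM and the KO mice 1.52, 1.51, 1.65 and 1.199. The groups overlapped in each preparation, in NoSelect through KO mouse 5 alone. The log2 difference was -0.24 ± 0.14 in RiboZero, -0.30 ± 0.21 in PolyA and -0.44 ± 0.14 in NoSelect (edgeR, adjusted p = 0.418, 0.489 and 0.183). Prox1 shares 133 exonic bases with the antisense gene Prox1os.

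Of 5 other lymphatic endothelial genes, 3 were called lower in KO (adjusted p under 0.05 in edgeR) in RiboZero (Lyve1, Reln and Ccl21a). In PolyA and in NoSelect 1 was called lower (Reln in both). Over all rows, 1.63%, 2.41% and 0.981% were called lower in the 3 preparations. Reln encodes the secreted protein reelin, Lyve1 a hyaluronan receptor of lymphatic vessels that some macrophages also carry, and Ccl21a the chemokine that draws dendritic cells into lymphatics. Lyve1 in RiboZero read 212, 259 and 321 CPM in the lowest, median and highest WT library and 156, 171 and 228 in KO. Reln read 26.3, 29.1 and 33.1 CPM in WT and 16.9, 18.7 and 27.5 in KO. The KO medians of both genes lay below every WT library, although the ranges overlapped.

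In NoSelect, Reln read 7.91, 7.13, 6.61 and 6.78 CPM in WT mice 3 to 6 and 5.04, 4.51, 4.46 and 4.64 in KO mice, with no overlap (as in 9.51% of all rows there). Its log2 difference was -0.51 ± 0.12 in RiboZero, -0.68 ± 0.17 in PolyA and -0.61 ± 0.069 in NoSelect (edgeR, adjusted p = 0.0351, 0.0400 and 0.00471). For Lyve1 the differences were -0.53, -0.50 and -0.55, with adjusted p of 0.0206, 0.0532 and 0.0502 in edgeR. For Ccl21a they were -0.31, -0.32 and -0.29, with adjusted p of 0.0460, 0.143 and 0.0730. Mmrn1, which encodes a secreted multimerin, had -0.25, -0.45 and -0.38 (adjusted p = 0.0703, 0.0547 and 0.0573), and Flt4, the receptor for vascular endothelial growth factor C, had -0.05, -0.08 and 0.01 (lowest adjusted p = 0.634).

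The summed level of the 5 lymphatic genes did not overlap between the genotypes in any preparation. It was 429 to 517 CPM in WT and 331 to 398 in KO in RiboZero, 443 to 578 and 334 to 396 in PolyA, and 119.6 to 138 and 88.0 to 105 in NoSelect. The preparations share mice, and the list was chosen with earlier results of these data known. Of single rows, 2.89%, 3.21% and 9.51% did not overlap in RiboZero, PolyA and NoSelect, and the share for sums of genes was not counted. Lyve1 made up the largest part of the lymphatic sum. Without it, the sum of the other 4 genes overlapped between the genotypes in RiboZero (189 to 217 CPM in WT, 152 to 193 in KO) and in PolyA (175 to 216 and 135 to 195.0), through KO mouse 1 in RiboZero and KO mice 1 and 5 in PolyA, and did not in NoSelect (51.1 to 56.8 and 43.7 to 49.6). The macrophage marker Cd68, from a list of 5 leukocyte genes, fell in PolyA (-0.50, adjusted p = 0.0217 in edgeR, 0.0506 without KO mouse 6). It had -0.34 and -0.35 in RiboZero and NoSelect (adjusted p = 0.137 and 0.102). The mean sum of the 5 leukocyte genes was 157 CPM in WT and 156 in KO in RiboZero. In PolyA it was 154 and 150, and in NoSelect 42.1 and 36.3. The part of macrophages in the Lyve1 values was not tested. The calls on single lymphatic genes were near the threshold. When 1 library was left out, the count of the 5 lymphatic genes called ran from 0 to 4 in RiboZero, from 0 to 2 in PolyA and from 1 to 2 in NoSelect. Without KO mouse 6 it was 1 in each preparation (Lyve1 in RiboZero and PolyA, Reln in NoSelect), and Reln had an adjusted p of 0.0650 in RiboZero and 0.0715 in PolyA.

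**Figure D3:**
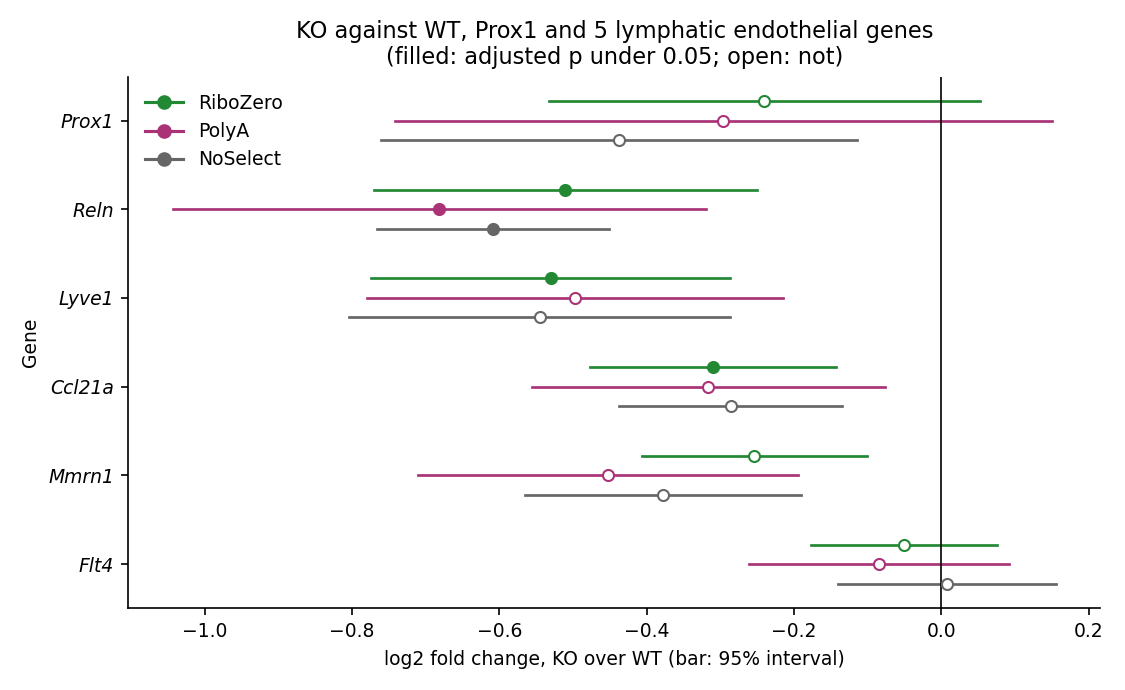
Log2 fold change of KO over WT with 95% intervals for Prox1 and 5 other lymphatic endothelial genes in RiboZero (green), PolyA (purple) and NoSelect (grey) libraries. Filled symbols have an adjusted p under 0.05 in edgeR: Reln in all 3 preparations, Lyve1 and Ccl21a in RiboZero. The estimates of Flt4 lie near 0.

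Of 18 other genes shared by endothelial cells, 1 fell in RiboZero (Mmrn2), 1 rose and 1 fell in PolyA (Clec14a and Mmrn2), and 2 rose in NoSelect (Clec14a and Egfl7), with list medians of 0.06, 0.12 and 0.11 in log2. Read against the shares of all rows called (3.46%, 4.03% and 2.17%), 1, 2 and 2 of 18 passed, while 0 of the 10 members did. Clec14a, a lectin-domain protein of vessel sprouts, had differences of 0.39, 0.51 and 0.33, and Mmrn2, the matrix protein that binds it, had -0.27, -0.29 and -0.22. Without KO mouse 6, Mmrn2 had adjusted p of 0.0754 and 0.0602 in RiboZero and PolyA, and Clec14a passed in RiboZero as well (0.0480). None of 5 other aerocyte genes, 4 other general capillary genes, 7 arterial and 4 venous genes passed the edgeR test in any preparation. Of 22 genes for ligands, partners and signalling of the members, 21 were tested. Edn1, which encodes the endothelin-1 ligand of Ednrb, rose in RiboZero (0.76, adjusted p = 0.0475 in edgeR), and it had 0.76 and 0.54 in PolyA and NoSelect (adjusted p = 0.0737 and 0.229). Without KO mouse 6 the RiboZero value of Edn1 was 0.62 with an adjusted p of 0.0748. Edn3, another endothelin, fell in PolyA (-0.37, adjusted p = 0.0136 in edgeR), and it had -0.23 and -0.27 in RiboZero and NoSelect (adjusted p = 0.140 and 0.0945).

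Whether the KO difference of a gene depended on the preparation was tested as an interaction. None of the 10 genes passed for any pair of preparations in edgeR, none had an unadjusted p under 0.05, and DESeq2 called none. Of all rows, 0% were called for each pair, and 1.82% (PolyA against RiboZero), 2.24% (PolyA against NoSelect) and 1.39% (RiboZero against NoSelect) had an unadjusted p under 0.05. The 95% intervals of the interaction, from fits without a term for the mouse, were wide. They ran from -1.02 to 0.76 in log2 over the 10 genes and 3 pairs.

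The mice of one genotype differed among themselves, and for some of the genes the same mice were high or low in both the RiboZero and the PolyA library. Over 7855 rows, the deviations of each mouse correlated at 0.55 to 0.83 between its RiboZero and PolyA libraries. How many of all genes match as closely as the members was not counted. Of the 10 genes, Aplnr showed the closest match: WT mouse 1 and KO mouse 4 were the highest of their genotype and WT mouse 6 and KO mouse 6 the lowest in both preparations. After subtraction of the genotype mean of log2(CPM + 0.5), its deviations over the 12 mice had Pearson's r of 0.96 and Spearman's rho of 0.97 between preparations (permutation tests, 100000 resamples, p = 1e-05 for each, the smallest they can give, adjusted over 10 genes to 0.0001). Without the 2 mice farthest from the RiboZero median, KO mouse 6 and WT mouse 6, r was 0.93. Tek, Nos3 and Car4 had r of 0.85 each and rho of 0.92, 0.91 and 0.92 (permutation p = 0.00036, 0.0005 and 0.0002, adjusted 0.0012, 0.00125 and 0.001), with r of 0.86, 0.77 and 0.88 without 2 mice. Pecam1 had r of 0.80 and rho of 0.73 (permutation p = 0.00172, adjusted 0.00344), and r of 0.53 without KO mouse 4 and WT mouse 2, so that its relation rested partly on those mice.

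The match was looser for the other 5 genes. Vwf had r of 0.63 and rho of 0.58 (permutation p = 0.0278 and 0.0522, adjusted 0.0464 and 0.0745), and r of 0.34 without KO mouse 3 and WT mouse 6. Prox1, Cdh5 and Ednrb had r of 0.58, 0.53 and 0.50, none with an adjusted permutation p under 0.05, and r of 0.54, 0.52 and 0.18 without 2 mice. Kdr had r of 0.21 and rho of 0.13 (permutation p = 0.501 and 0.683, adjusted to the same values), and r of 0.43 without KO mouse 1 and KO mouse 6. The standard deviation of the RiboZero deviations, in log2, was 0.40 for Aplnr and 0.34 for Vwf, against 0.11 for Tek.

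**Figure D4:**
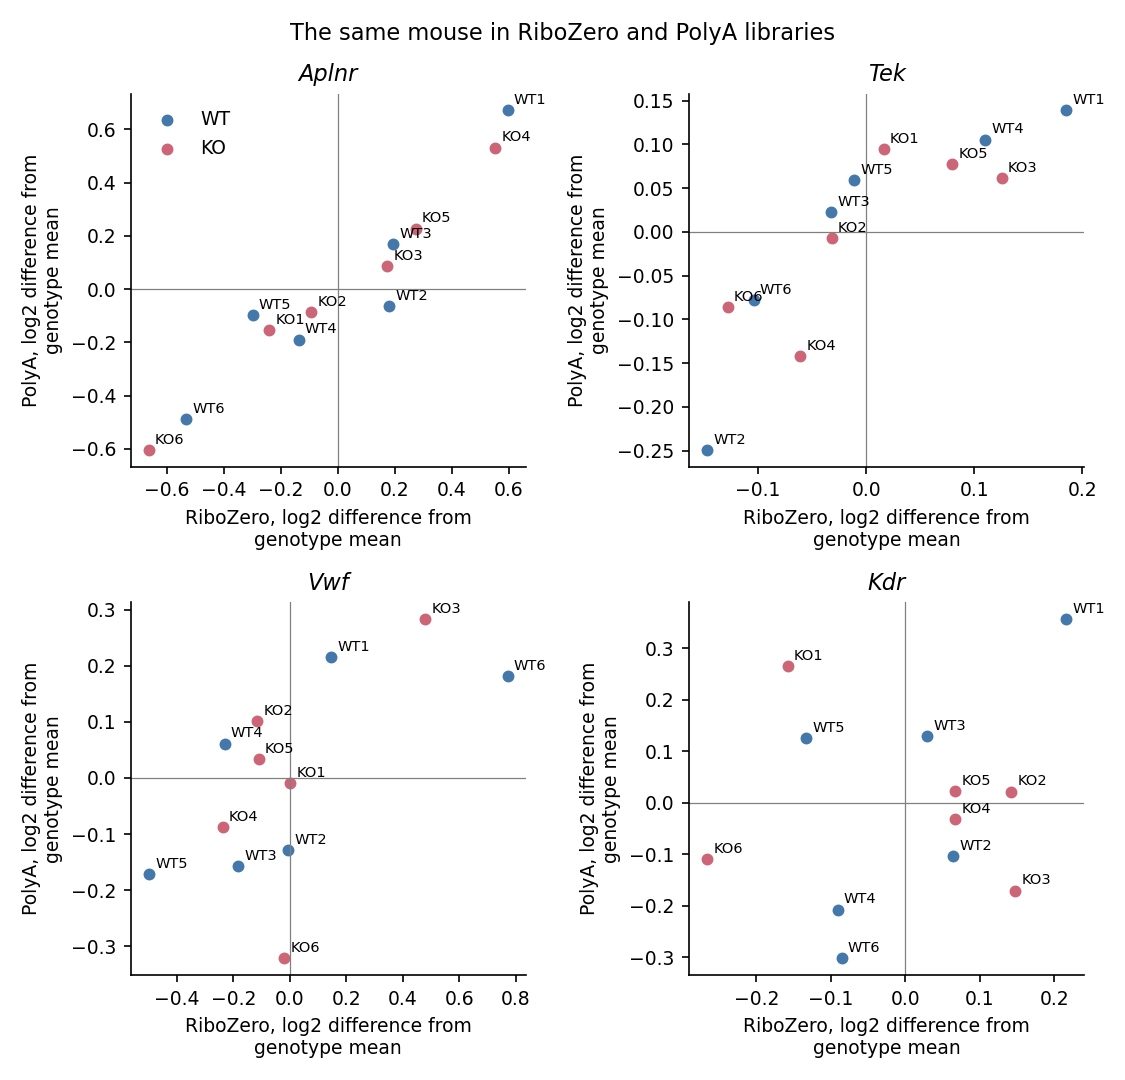
Deviation of each mouse from its genotype mean, in log2 of CPM + 0.5, in RiboZero (x axis) and PolyA (y axis) libraries, for Aplnr, Tek, Vwf and Kdr, with 6 WT mice in blue and 6 KO mice in red. The points of Aplnr and Tek follow a rising line, those of Vwf rest on a few mice and those of Kdr scatter.

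WT mouse 2 had the lowest WT level of Pecam1, Cdh5, Tek and Car4 in both the RiboZero and the PolyA library. It also had the highest sum of 6 cardiomyocyte genes, 454 CPM in RiboZero (98.7 to 454 over WT, 36.9 to 298 over KO) and 1033 CPM in PolyA (233 to 1033 over WT, 118 to 654 over KO). The same mouse had the highest sum of 7 pericyte and smooth muscle genes (1174 and 1777 CPM, WT medians 880.4 and 1099) and the lowest WT sum of 5 alveolar epithelial genes (8397 and 16597 CPM, WT medians 9797 and 19706). None of the 6 cardiomyocyte genes was at 0 in all libraries of a preparation, and the part of these other cell types in the endothelial levels was not tested.

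Among the 45 pairs of members, only Pecam1 and Cdh5 deviated together with r of at least 0.7 in both preparations, at 0.89 in RiboZero and 0.93 in PolyA. Nos3 and Prox1 had r of -0.53 and -0.81, and Pecam1 and Aplnr -0.60 and -0.59. These values are descriptions over 12 mice whose genes share a library. Over 11432 genes with at least 5 CPM, ranked by the lower of the RiboZero and PolyA r with a member, Pecam1 was most like Ace (0.96 and 0.92), Ly6c1 and Cdh5. The nearest to Cdh5 were Ston1 (0.93 and 0.93), Podxl and Ptgfrn, and those to Kdr were Gab1 (0.88 and 0.87), Epn2 and Ankrd50. Tek lay nearest to Mrtfb (0.88 and 0.91), and Nos3 to Ybx3 (0.90 and 0.93). For Car4 the nearest were Ramp2 (0.89 and 0.92), Ly6a and Icam2, and for Aplnr C1qtnf2 (0.89 and 0.97), Plxnd1 and Pitpnm3. Ednrb was most like Pcdhac2 (0.90 and 0.79), Prox1 like Spata13 (0.81 and 0.79) and Vwf like Vcam1 (0.75 and 0.73).

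The median absolute log2 difference of the 10 genes was 0.61 between PolyA and RiboZero, 0.51 between PolyA and NoSelect, and 0.20 between the latter and RiboZero. Over all rows it was 0.56, 0.59 and 0.17. For KO against WT it was 0.18, 0.15 and 0.15 in RiboZero, PolyA and NoSelect, and 0.089, 0.097 and 0.094 over all rows. Between PolyA and RiboZero, 9 of the 10 genes differed at an adjusted p under 0.05 in edgeR, against 81.1% of all rows. With a log2 difference of at least 1 required as well, 2 did (Kdr and Prox1), against 23.6% (16.6% of rows in that direction). Both counts are near the background. Vwf, Car4 and Nos3 read higher in PolyA (42.5% of all rows did), and Kdr, Prox1, Tek, Cdh5, Ednrb and Pecam1 read lower (38.6%), while Aplnr did not pass (-0.06, 95% interval -0.37 to 0.26).

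On a CPM scale shared by all 32 libraries, Kdr read 328, 373 and 453 in the lowest, median and highest of 12 RiboZero libraries, 137, 194 and 248 in 12 PolyA libraries, and 287, 316 and 411 in 8 NoSelect libraries. All PolyA libraries thus lay below all others. Its difference was -1.01 ± 0.069 in log2 for PolyA against RiboZero and -0.77 ± 0.077 against NoSelect (edgeR, adjusted p = 1.1e-12 and 1.03e-08). Prox1 read 2.95, 4.12 and 5.39 CPM in RiboZero, 1.24, 1.84 and 2.69 in PolyA and 3.42, 4.62 and 6.53 in NoSelect, again with no overlap of PolyA with the others. Its differences were -1.11 ± 0.12 and -1.30 ± 0.13 (adjusted p = 6.5e-09 and 1.8e-08 in edgeR), the latter being the only one of the 10 with a log2 size of at least 1 against NoSelect.

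Car4 went the other way, with 54.1, 61.1 and 74.4 CPM in the lowest, median and highest RiboZero library, 93.8, 111 and 146 in PolyA and 61.4, 68.6 and 77.8 in NoSelect. Every PolyA library lay above every other library. The log2 difference was 0.84 ± 0.061 against RiboZero and 0.78 ± 0.069 against NoSelect (edgeR, adjusted p = 2.96e-12 and 1.46e-09). Tek also separated fully, below the others in PolyA (146 to 202 CPM, against 254 to 325 in RiboZero and 229 to 287 in NoSelect), with differences of -0.65 and -0.37. Vwf was 0.79 and 0.62 higher, with ranges that overlapped (266 to 394 CPM in PolyA, 111 to 282 in RiboZero, 146 to 284 in NoSelect). Nos3 was 0.37 and 0.21 higher. How many of all rows separate as fully as Kdr, Prox1, Car4 and Tek was not counted. Between PolyA and RiboZero, 81.1% of all rows differed at an adjusted p under 0.05 in edgeR.

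**Figure D5:**
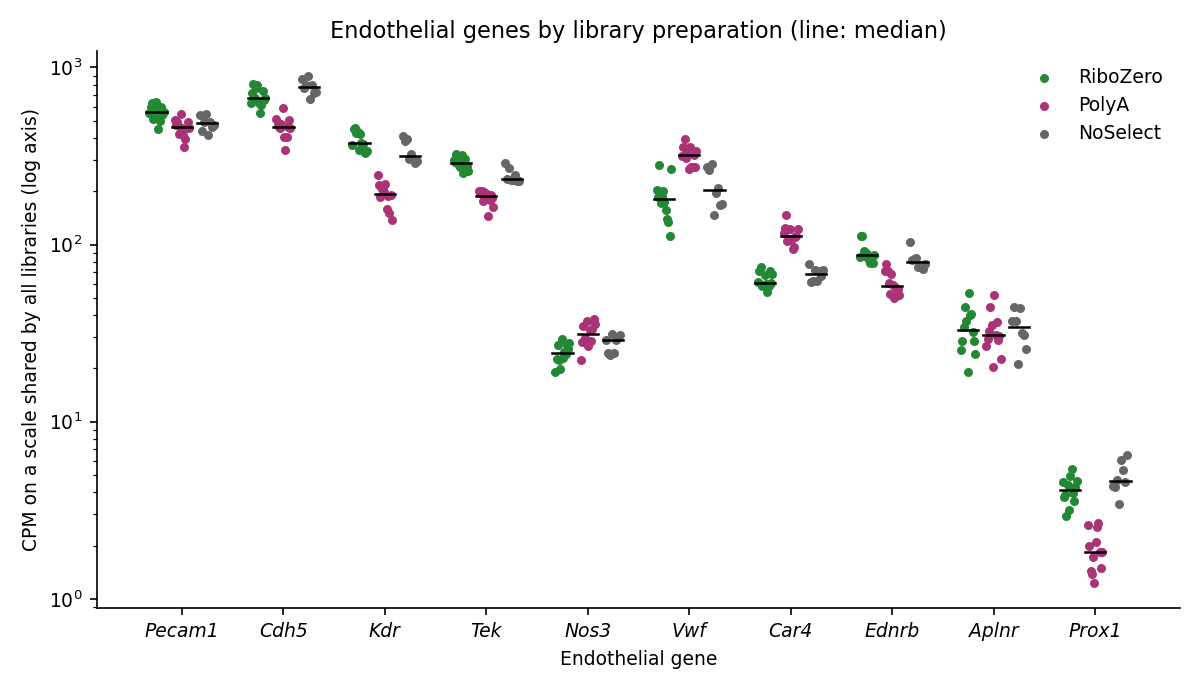
CPM of the 10 endothelial genes on a scale shared by all 32 libraries (log axis), with 12 RiboZero libraries in green, 12 PolyA libraries in purple, 8 NoSelect libraries in grey and a line at each median. PolyA points lie below all others for Kdr, Tek and Prox1 and above them for Car4. The share of all rows that separate in this way was not counted.

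Against NoSelect, PolyA differed in 8 of the 10 genes at an adjusted p under 0.05 (79.1% of all rows) and in 1 with a log2 size of at least 1 (25.1%, or 15.1% in its direction). Of all rows 42.8% were higher and 36.3% lower, against 3 and 5 of the 10. Cdh5, Tek and Ednrb differed by -0.71, -0.37 and -0.39, and Pecam1 (-0.04) and Aplnr (-0.02) did not pass. The median of all rows in this comparison was 0.10 in log2. RiboZero and NoSelect libraries were closer, with 5 of 10 genes at an adjusted p under 0.05 (45.9% of all rows) and 0 with a log2 size of at least 1 (4.3%, split into 1.74% higher and 2.56% lower). Tek, Pecam1 and Kdr read higher in RiboZero, by 0.24, 0.20 and 0.19 (24.3% of all rows were higher). Nos3 and Cdh5 read lower, by -0.20 and -0.18 (21.5%). With the mouse as a block 9 of the 10 passed (57.8% of all rows), and with mice 3 to 6 alone 3 did (41.0%).

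The genes that read higher in PolyA than in RiboZero had a GC content of 51.3% (Car4), 56.5% (Vwf) and 58.2% (Nos3) in their longest transcript. The 6 that read lower lay between 43.9% (Ednrb) and 52.2% (Cdh5). The ranges overlap, since Cdh5 lies above Car4. Exonic length overlapped as well, with 1966 bases for Car4 and 16064 for Vwf among the higher, and 9030 for Kdr and 4203 for Cdh5 among the lower. These are descriptions of 9 genes, and the part of base composition in the preparation difference was not tested.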

How the data were processed

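Gene-level estimated counts of 32 libraries were deposited by the authors as 1 table, in which 12.81% of values were not whole. The submitters' processing notes name Salmon 1.4.0, UMI-tools 1.1.1 and the build GRCm38, and the strand setting and annotation are not given in the sources used here. All 32 columns were matched to libraries by name. Values were rounded and tested with edgeR 4.0.16 in R 4.3.3 (TMM, filterByExpr, glmQLFit, glmQLFTest, Benjamini-Hochberg adjustment over all rows tested). The model for KO against WT held genotype only and was fitted to each preparation by itself, and preparations were compared with genotype as a covariate. CPM are on the TMM scale. Error values after ± are standard errors of the fitted log2 fold change. Gene positions and lengths are from GENCODE M21. Alternatives were DESeq2 1.42.0, median-of-ratios factors, other low-count filters, 1 fit of all libraries, mice 3 to 6 alone, replicate blocks and leaving out libraries; those for genes of other lists were chosen after seeing the data. The fits were tested on simulated data, drawn without a shared mouse. A KO change of 0.5 in log2 was recovered in 55%, 50% and 45% of changed rows in RiboZero, PolyA and NoSelect. Among rows with at least 5 CPM it was 75.7%, 66.7% and 75.5%. As an interaction, 33% (PolyA against RiboZero), 29% (PolyA against NoSelect) and 33% (RiboZero against NoSelect) were recovered. Of the calls in the second of these, 8.1% were false. The members and the 15 other gene lists were chosen with earlier results of these data known. The genes named from those lists are those that passed the edgeR test in a preparation, at most 3 per list, besides the whole lymphatic list.

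Libraries of one mouse are paired across preparations, since the labels number the animals and their deviations from group means correlated at 0.55 to 0.83 over 7855 rows, each being closest to its own mouse. P-values of KO against WT measure the spread between these animals. The main fits that compare preparations, or the KO difference between them, held no term for the mouse. Libraries of one mouse entered those fits as separate units, and the mouse as a block was an alternative. Counting precision follows the depths given with the levels.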

Additional observations from a re-analysis of the deposited data

Results flagged for a closer look

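Within groups of 4 to 6 libraries, 60 groups of the 10 genes were checked for a library far from the rest, and 3 had one; chance marks about 1 in 20 groups. Vwf in the NoSelect library of KO mouse 6 was 51.2 CPM, the lowest of its group, with the nearest other at 93.4 and the highest at 101 CPM. Vwf in the RiboZero library of KO mouse 3 was 354 CPM, the highest of its group, with the nearest other at 254 and the lowest at 215 CPM. Ednrb in the NoSelect library of KO mouse 3 was 36.6 CPM, the highest of its group, with the nearest other at 29.6 and the lowest at 28.9 CPM.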

How the results depend on the processing

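The count of members called in KO against WT stayed at 0 in RiboZero under every alternative. In PolyA it was 1 (Ednrb) with DESeq2 (7.87% of all rows called) and with all 32 libraries in one fit (8.25%), and 0 to 1 when a library was left out (1 without KO5, 3.0% of all rows). In NoSelect it was 1 (Kdr) with DESeq2 (5.13% of all rows) and 0 to 2 when a library was left out (2 without KO6, Kdr and Vwf, 2.73% of all rows). No interaction of genotype and preparation was called for a member under any alternative, the mouse block included. For the 5 other lymphatic genes, the count called in PolyA was 3 with DESeq2, 0 without a filter on low counts, 2 with at least 10 counts in every library, 4 with all 32 libraries in one fit, 2 with the replicate number as a block, 0 with mice 3 to 6 alone, and 0 to 2 when a library was left out. In NoSelect it was 4 with DESeq2, 3 with at least 10 counts, 2 without Lars2 and the Gm42418 transcript, and 1 to 2 when a library was left out. In RiboZero it ran from 0 to 4 when a library was left out. Over these fits the share of all rows called lower ran from 1.2% to 4.37% in PolyA, from 0.393% to 2.45% in NoSelect and from 1.07% to 1.83% in RiboZero. Equal numbers in WT and KO did not pair the mice (correlations from -0.08 to 0.32, closest to their own number in 1 of 6, 2 of 6 and 0 of 4 cases). The replicate number as a block changed no call of a member in KO against WT.

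The sign of Aplnr changed to 0.10 in RiboZero and 0.13 in PolyA with mice 3 to 6 alone. With a library left out, Aplnr ran from -0.25 to 0.049 in PolyA, from -0.067 to 0.26 in NoSelect and from -0.077 to 0.036 in RiboZero against NoSelect, and Car4 from -0.059 to 0.055 in NoSelect. The cause was not tested. In PolyA against RiboZero, the genes with a log2 size of at least 1 numbered 1 to 2 when a library was left out (Kdr was under 1 without KO2, KO3, WT2, WT4 or WT6). In RiboZero against NoSelect, the members at an adjusted p under 0.05 numbered 9 with the mouse as a replicate block (57.8% of all rows) and 3 with mice 3 to 6 alone (41.0%). Prox1 had the fewest counts of the 10 genes, 54 to 155 per library in RiboZero, 76 to 148 in PolyA and 108 to 214 in NoSelect.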

Other observations

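Among markers of other lung cells, Kcnj8, a potassium channel subunit of pericytes, fell in KO in all 3 preparations (-0.69, -0.71 and -0.80 in log2 for RiboZero, PolyA and NoSelect, adjusted p = 0.0245, 0.0116 and 0.0106 in edgeR), the only one of 7 pericyte and smooth muscle genes to pass. Of 5 megakaryocyte and platelet genes, Itga2b rose in NoSelect (1.15, adjusted p = 0.0113 in edgeR), with 0.87 and 0.81 in RiboZero and PolyA (adjusted p = 0.102 and 0.149). Of 4 fibroblast genes, Dcn fell in PolyA (-0.78), with -0.51 and -0.53 in RiboZero and NoSelect (adjusted p = 0.0565 and 0.0950 in edgeR). Col1a1 rose in NoSelect (0.54), with 0.51 and 0.14 in RiboZero and PolyA (adjusted p = 0.0691 and 0.565 in edgeR). Of 5 alveolar epithelial genes, Ager rose in RiboZero (0.23). It had 0.17 and 0.25 in PolyA and NoSelect (adjusted p = 0.202 and 0.0822 in edgeR). Of 5 leukocyte genes, Cd68 fell in PolyA (-0.50). Over all rows, 3.46%, 4.03% and 2.17% were called in RiboZero, PolyA and NoSelect. Without KO mouse 6, Ager and Cd68 had adjusted p of 0.0745 and 0.0506. No cardiomyocyte, red cell or tested hepatocyte gene passed in any preparation.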
